A study of Homo sapiens with 6 samples.

Results

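TNFRSF19 and 9 genes that receive or restrain Wnt signals (AXIN2, LGR4, LGR5, RNF43, ZNRF3, NKD1, TCF7, LEF1 and DKK1) were examined in 22Rv1 cells, a prostate carcinoma epithelial cell line. They are 10 of the 29804 gene symbols in the count table and were taken by symbol. TNFRSF19 had been selected on its fall in phleomycin-treated against untreated cells in these same libraries, and the other 9 were listed for their place in the pathway with results of these data known. For all 10 genes the comparison of treated with week 0 cells is therefore given as a description, without a test. RNA was sequenced from 3 groups of 2 libraries each, which the labels call biological replicates. WT cells were untreated and taken at week 0. Age matched (AM) cells were kept for 6 weeks without drug. 6WP cells were kept for 6 weeks and exposed on week days to phleomycin, a radiomimetic that breaks DNA, at 1 µg/ml. Each exposure lasted 1 hour, after which the drug was washed off. All groups are the same line in the same medium with serum and carry the genotype label WT. Whether the replicates came from separate cultures is not described further, so p-values measure the spread between these libraries. WT differs from 6WP in both drug and time in culture, while AM shares the culture time of 6WP.

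Wnt ligands bind Frizzled receptors and LRP5 or LRP6, which stabilizes β-catenin (CTNNB1), and β-catenin then acts with the transcription factors TCF7 and LEF1 at target genes. The ubiquitin ligases RNF43 and ZNRF3 remove Frizzled receptors from the membrane, and R-spondins, bound to LGR4 or LGR5, hold these ligases back. AXIN2, NKD1, RNF43, ZNRF3 and DKK1 are induced by the pathway in many cell types and limit it in turn. TNFRSF19 (TROY) is an orphan member of the TNF receptor family that lies with LGR5 in intestinal stem cells, where it is a Wnt target.

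Library totals ranged from 21222201 to 35311945 counts, and 3 counts, the smallest amount taken as detectable, equalled 0.0883 to 0.138 CPM (counts scaled to a common library size with TMM factors). These floors cover counting error only. The replicates of 6WP stood further apart than the others, their counts giving a chi-square of 52.1 for each degree of freedom, against 4.8 in WT and 7.59 in AM. Of the 14672 genes that passed the filter on low counts, 17.7% differed between AM and WT at an adjusted p under 0.05 in edgeR's quasi-likelihood test (7.74% higher and 9.93% lower in AM). Of these calls 43.8% were higher in AM, and 30.5% when only library size was used for scaling. Between 6WP and AM 21.3% differed (11.7% higher and 9.68% lower in 6WP), and between 6WP and WT 3.00% did (1.63% higher and 1.37% lower). All 10 markers of luminal prostate epithelium, among them KLK3, KRT8 and KRT18, passed the filter, and their summed level was 2982.3 to 3137.4 CPM in WT, 1933.9 to 2286.1 in AM and 2468.1 to 3454.6 in 6WP. The 4 basal and 4 endothelial markers summed to at most 0.589 CPM, the 5 leukocyte markers to 0.344 to 1.121, and the 6 fibroblast markers to 1.737 to 4.231. PTPRC, CD3E, KRT5, CDH5 and KDR were at 0 counts in every library. The lower sum in AM was not shared by all 10 luminal markers. In AM against WT 6 had log2 fold changes below 0 and 4 above 0 (KLK2 0.81, KLK3 0.71, EPCAM 0.22 and KRT18 0.06). The part of the lower summed luminal marker level of AM cells in the results below was not tested. In bulk RNA, fewer cells of a type and less RNA per cell cannot be told apart.

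After 6 weeks without drug, TNFRSF19 had fallen more than any other of the 9 tested genes, and its level was also low in 6WP cells. The gene lies on the plus strand of chromosome 13 from 23570370 to 23676104 (GRCh38), and its exons share no bases with those of other annotated genes. RefSeq gives it a pair of start sites, and the 250 bases before each are shown because TNFRSF19 is the gene that moved. The upstream start (chr13:23570162-23570411) and the downstream start (chr13:23579110-23579359) are given 5′ to 3′ on the plus strand, in lower case.
TNFRSF19 upstream start: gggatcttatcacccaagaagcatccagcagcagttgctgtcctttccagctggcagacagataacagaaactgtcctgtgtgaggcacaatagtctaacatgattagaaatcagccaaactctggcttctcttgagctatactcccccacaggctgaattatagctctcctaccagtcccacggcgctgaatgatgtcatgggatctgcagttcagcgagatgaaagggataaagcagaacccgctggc
TNFRSF19 downstream start: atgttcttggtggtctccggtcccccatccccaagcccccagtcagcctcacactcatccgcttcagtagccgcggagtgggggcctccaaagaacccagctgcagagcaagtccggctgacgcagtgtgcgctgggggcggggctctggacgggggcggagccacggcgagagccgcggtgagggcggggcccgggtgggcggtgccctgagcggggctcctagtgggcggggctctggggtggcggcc
Neither stretch holds CTTTGAT or CTTTGAA on either strand, the letters of the core TCF and LEF motif that were searched. This says only that these letters are not in these windows.

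TNFRSF19 had 12.8 and 11.7 CPM in the WT libraries (287 and 254 counts), 1.64 and 2.00 CPM in the AM libraries (38 and 68 counts) and 2.46 and 2.92 CPM in the 6WP libraries (68 and 83 counts). Both libraries of AM and both of 6WP lay far below both of WT, and the 6WP libraries lay above the AM libraries. In AM cells the log2 fold change against WT was -2.74 (standard error 0.22, 95% confidence interval -3.24 to -2.24, adjusted p = 0.00157, edgeR quasi-likelihood test). This comparison uses the WT libraries on which the gene had been selected, so its p is not independent of the selection. Over the 11 alternative settings TNFRSF19 stayed lower in AM, with log2 fold changes of -2.91 to -2.62 and adjusted p-values of 1.09e-19 to 0.0448. In 6WP cells the log2 fold change against WT was -2.18 (standard error 0.21), a value given as a description. Between the cultures of equal age, TNFRSF19 was 0.55 higher in 6WP than in AM on the log2 scale (standard error 0.23, 95% confidence interval 0.03 to 1.07). This difference had an unadjusted p of 0.0401 and an adjusted p = 0.116 in edgeR, and so did not pass. Without 6WP replicate 1 the difference was 0.67, and over the 11 alternatives it lay between 0.39 and 0.72. The 6WP libraries are also those on which the gene had been selected, so this p is not independent of the selection either.

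**Figure D1:**
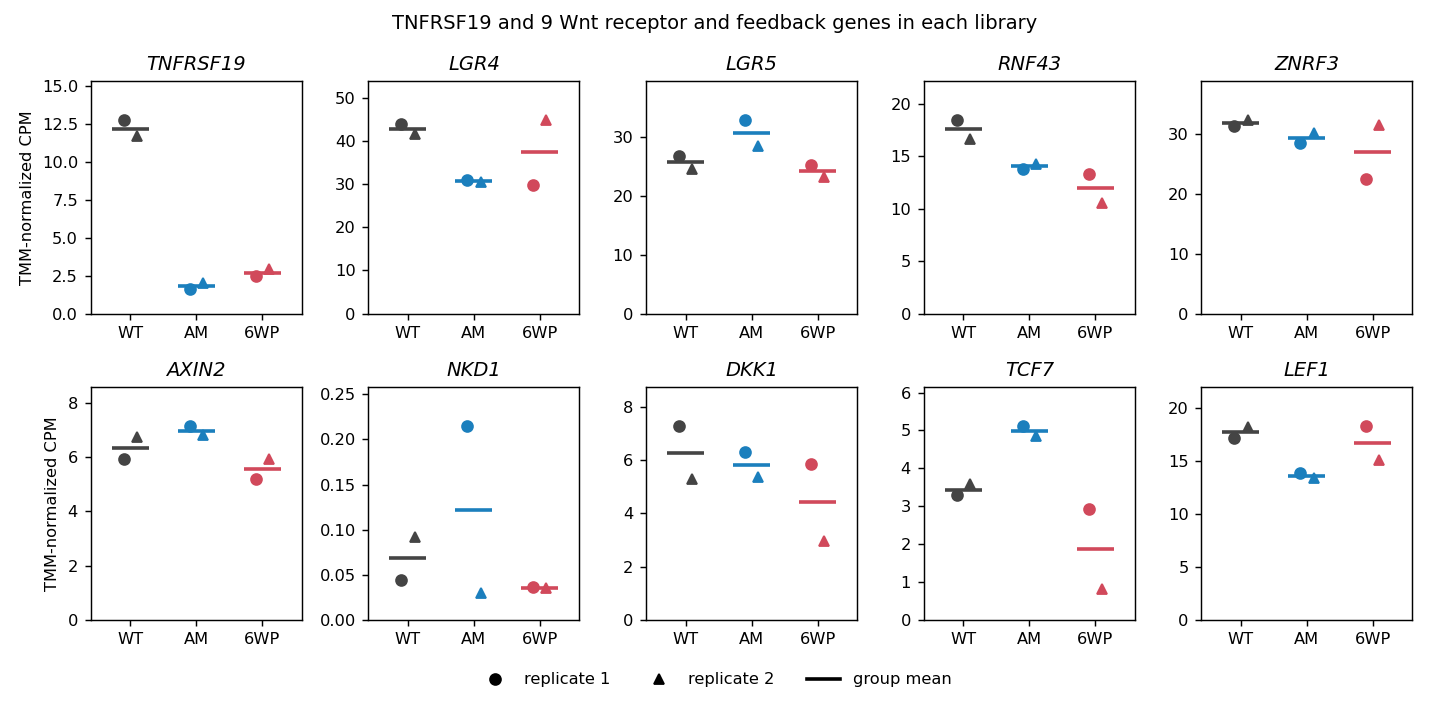
TMM-normalized CPM (vertical axes, each from 0) of TNFRSF19 and the 9 other genes in the WT, AM and 6WP libraries, with circles for replicate 1, triangles for replicate 2 and lines at the group means. The TNFRSF19 means are 1.82 CPM in AM, 2.69 in 6WP and 12.2 in WT, the 6WP replicates of LGR4, ZNRF3, DKK1 and TCF7 lie apart, and the NKD1 values rest on 1 to 5 counts.

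Against AM cells, the comparison that holds culture time constant, 0 of the 9 tested genes passed in either direction, where 21.3% of all tested genes did. By edgeR, 3 of the 9 (TNFRSF19, LGR5 and TCF7) had an unadjusted p under 0.05, and DESeq2 called 1, TCF7. With either 6WP library left out edgeR called more of the 9, but it also called more of all tested genes. Nothing is read from those calls about the 9. Against WT cells, AM differed in 1 of the 9, TNFRSF19, or 11.1% against 17.7% of all genes. TNFRSF19 had been selected on these WT libraries and no other tested member passed, so nothing is read from this share. In 6WP against WT, where 3.00% of all genes were called, the 9 tested genes had log2 fold changes of -2.18 to -0.08 with a median of -0.23, beside 0.01 for all genes, and nothing is read from these values. The 3 comparisons share libraries in pairs, so their values are not independent of one another.

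**Figure D2:**
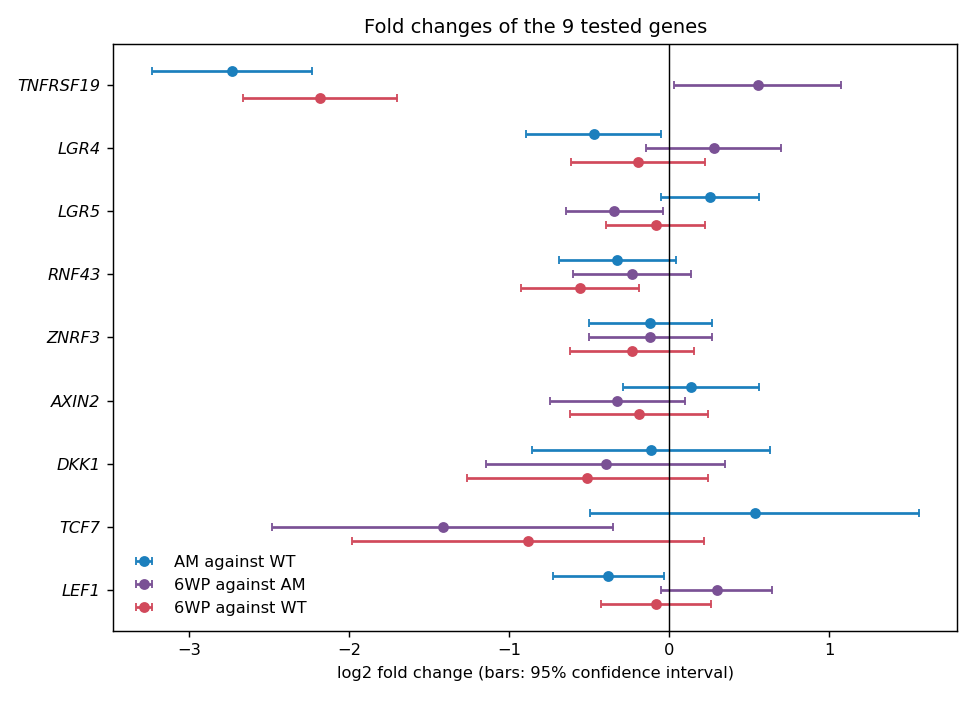
Log2 fold changes (horizontal axis) of the 9 tested genes in AM against WT, 6WP against AM and 6WP against WT, with 95% confidence intervals from the quasi-likelihood fit as bars. TNFRSF19 lies at -2.74 and -2.18 against WT, and the intervals of TCF7 and DKK1 are the widest of the 9 genes in each comparison.

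The R-spondin receptors LGR4 and LGR5 passed the test in neither AM against WT nor 6WP against AM. LGR4 (chromosome 11, 27365961 to 27472790, minus strand) had 44 and 41.6 CPM in WT, 31.0 and 30.6 in AM, and 29.9 and 44.9 in 6WP. Both AM libraries were below both WT libraries, and the 6WP libraries were the lowest and the highest of all. The log2 fold change of LGR4 in AM against WT was -0.47 (standard error 0.18, adjusted p = 0.108). From AM to 6WP it was 0.28 (standard error 0.18, adjusted p = 0.302), but -0.07 without 6WP replicate 2 and 0.54 without 6WP replicate 1. LGR5 (chromosome 12, 71439798 to 71586310, plus strand) had 26.8 and 24.7 CPM in WT, 33.0 and 28.6 in AM, and 25.3 and 23.2 in 6WP. By group mean, AM was highest for LGR5 and lowest for LGR4. LGR5 in 6WP was at -0.34 on the log2 scale relative to AM (standard error 0.13, 95% confidence interval -0.65 to -0.04), with an unadjusted p of 0.0321 and an adjusted p = 0.100 from edgeR. In AM against WT it was 0.26 (standard error 0.13, adjusted p = 0.207).

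Neither ubiquitin ligase that clears Frizzled receptors passed the test in AM against WT or 6WP against AM. RNF43 (chromosome 17, 58353676 to 58417595, minus strand) had 18.5 and 16.7 CPM in WT, 13.8 and 14.3 in AM, and 13.3 and 10.6 in 6WP. The groups did not overlap, with WT highest and 6WP lowest. Its log2 fold change was -0.32 in AM against WT (standard error 0.16, adjusted p = 0.188), -0.23 from AM to 6WP (standard error 0.16, adjusted p = 0.323), and, as a description, -0.56 in 6WP against WT (standard error 0.16). RNF43 shares 68.4% of its exon bases with the annotated locus ENSG00000285897 on the same strand, so reads of the pair could have been divided or dropped in counting. ZNRF3 (chromosome 22, 28883572 to 29057488, plus strand) had 31.3 and 32.4 CPM in WT, 28.5 and 30.2 in AM, and 22.5 and 31.6 in 6WP. The 6WP libraries of ZNRF3 covered the range of all other libraries except the upper WT library. On the log2 scale ZNRF3 in AM was at -0.12 relative to WT (standard error 0.17, adjusted p = 0.647), and in 6WP at -0.12 relative to AM (standard error 0.17, 95% confidence interval -0.50 to 0.27, adjusted p = 0.641).

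Of the inhibitors that act inside the cell, AXIN2, a scaffold of the β-catenin destruction complex and a widely used readout of the pathway, was measured near 6 CPM, and NKD1, which binds Dishevelled, was at the detection floor. AXIN2 (chromosome 17, 65528563 to 65561648, minus strand) had 5.94 and 6.75 CPM in WT, 7.15 and 6.80 in AM, and 5.21 and 5.92 in 6WP. Its mean level was 6.97 ± 0.245 CPM in AM, 6.35 ± 0.576 in WT and 5.56 ± 0.504 in 6WP (SD, n = 2). The log2 fold change was 0.14 in AM against WT (standard error 0.18, 95% confidence interval -0.29 to 0.56, adjusted p = 0.630). The value from AM to 6WP was -0.32 (standard error 0.18, 95% confidence interval -0.75 to 0.10, adjusted p = 0.235). AXIN2 shares 25.3% of its exon bases with ENSG00000266076 on the same strand. NKD1 (chromosome 16, 50548396 to 50649249, plus strand) had 1 and 2 counts in WT, 5 and 1 in AM, and 1 and 1 in 6WP, did not pass the filter and is given no fold change. A change of NKD1 was not detectable at this depth.

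DKK1, a secreted inhibitor that binds LRP6, lies on the plus strand of chromosome 10 from 52314281 to 52318042. The 250 bases before its RefSeq start (chr10:52314031-52314280) are shown because they hold a copy of the searched motif, in capitals, whose base nearest the 5′ end is 95 bases before the start.
DKK1 start: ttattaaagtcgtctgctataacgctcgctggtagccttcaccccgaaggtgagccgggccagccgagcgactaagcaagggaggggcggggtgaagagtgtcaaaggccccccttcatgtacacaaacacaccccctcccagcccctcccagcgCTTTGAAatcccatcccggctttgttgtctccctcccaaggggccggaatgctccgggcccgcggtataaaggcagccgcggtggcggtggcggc
The motif was found in 1 of the 9 windows that RefSeq lists for TNFRSF19, LGR4, RNF43, TCF7, LEF1 and DKK1 (11.1%, with AXIN2, LGR5, ZNRF3 and NKD1 not matched), in 3 of 90 windows of other Wnt pathway genes (3.33%) and in 5.94% of all 35116 windows of that length. RefSeq sequences were on GRCh38.p14. A match is a run of letters and not a measured site. DKK1 had 7.28 and 5.28 CPM in WT, 6.29 and 5.36 in AM, and 5.86 and 2.96 in 6WP. The groups overlapped, and 6WP replicate 2 was the lowest library. The log2 fold change of DKK1 from AM to 6WP was -0.40 (standard error 0.33, 95% confidence interval -1.15 to 0.35, adjusted p = 0.404), and in AM against WT it was -0.11 (standard error 0.32, adjusted p = 0.826). Without 6WP replicate 1 the value against AM was -0.97, and without 6WP replicate 2 it was -0.01. DKK1 shares 10.2% of its exon bases with PRKG1-AS1 on the opposite strand.

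TCF7 and LEF1 had opposite signs in both tested comparisons, and neither passed. TCF7 (chromosome 5, 134114681 to 134151865, plus strand) had 3.30 and 3.58 CPM in WT, 5.12 and 4.86 in AM, and 2.93 and 0.811 in 6WP (81 and 23 counts). AM libraries were above all others and 6WP libraries below all others, with the 6WP replicates far from each other. The log2 fold change of TCF7 in 6WP against AM was -1.42 (standard error 0.46, 95% confidence interval -2.48 to -0.35, adjusted p = 0.0629, edgeR). It did not pass here, but it did with DESeq2 (adjusted p = 0.0155), without a filter beyond 1 count (0.0175) and with the replicate number as a block (0.0440). Among the alternatives that left no single library out its adjusted p reached 0.118. Without 6WP replicate 1 the value was -2.61, and without 6WP replicate 2 it was -0.79. In AM against WT TCF7 was at 0.53 (standard error 0.45, adjusted p = 0.422). LEF1 (chromosome 4, 108047545 to 108168956, minus strand) had 17.2 and 18.2 CPM in WT, 13.9 and 13.4 in AM, and 18.3 and 15.1 in 6WP. AM was the lowest group for LEF1, and WT and 6WP overlapped. Its log2 fold change was -0.38 in AM against WT (standard error 0.15, adjusted p = 0.114) and 0.30 from AM to 6WP (standard error 0.15, adjusted p = 0.188). LEF1 shares 5.2% of its exon bases with LEF1-AS1 on the opposite strand.

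Between genes, levels were compared per kilobase of annotated exon (CPM per kb, means ± SD, n = 2). The length counts all annotated exons of a gene, expressed or not, so the order of genes and ratios between them depend on the annotation. In WT cells LGR4 was highest at 6.73 ± 0.272, followed by LGR5 at 4.93 ± 0.281, ZNRF3 at 4.56 ± 0.119 and LEF1 at 3.30 ± 0.126. DKK1 (2.83 ± 0.635) overlapped both LEF1 and RNF43 (2.78 ± 0.197) in its libraries, so these neighbours were not separated. TNFRSF19 came seventh in WT with 2.39 ± 0.158 CPM per kb, above AXIN2 (1.22 ± 0.111), TCF7 (0.341 ± 0.0196) and NKD1 (0.00393 ± 0.00192). In AM cells TNFRSF19, at 0.356 ± 0.0506, was below TCF7 (0.494 ± 0.0186), and LGR5 (5.90 ± 0.600) was above LGR4 (4.85 ± 0.0471). In 6WP cells LGR4 (5.88 ± 1.67), LGR5 (4.65 ± 0.283), ZNRF3 (3.87 ± 0.923) and LEF1 (3.12 ± 0.429) overlapped from each to the next of these, LEF1 did not overlap DKK1 (1.99 ± 0.923) below it, and TNFRSF19 stood at 0.526 ± 0.0645.

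**Figure D3:**
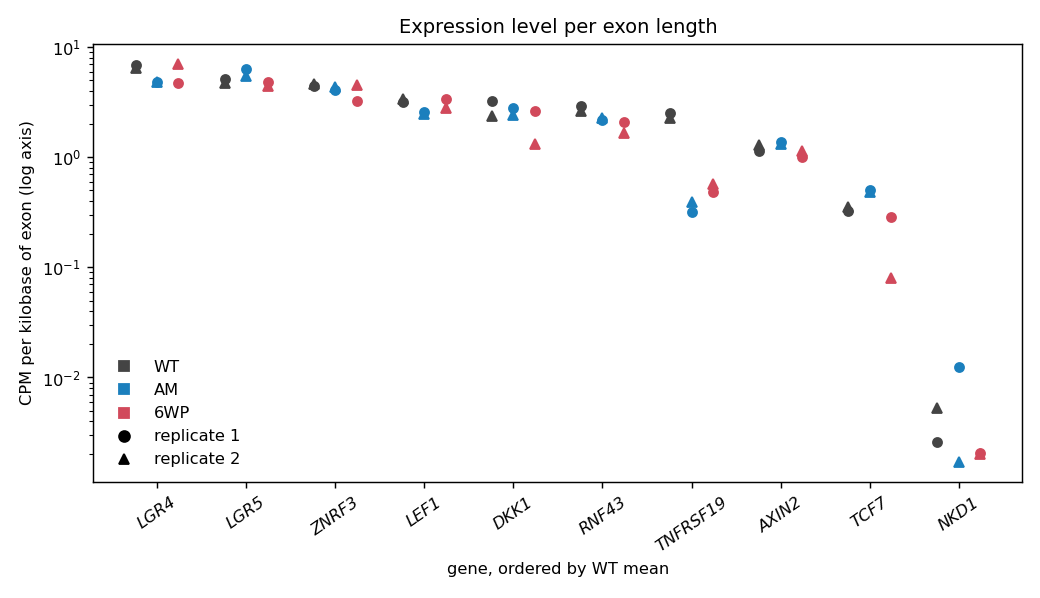
CPM per kilobase of annotated exon (log axis) of the 10 genes in every library, with the genes ordered by their WT mean, colours for groups and symbols for replicates. TNFRSF19 is at 2.39 in WT and at 0.356 in AM and 0.526 in 6WP, and NKD1 is the lowest gene in every library.

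The 5 genes whose log2 CPM over the 6 libraries ran most like that of TNFRSF19, among 12037 genes with a mean of at least 1 log2 CPM, were VEZF1, ANK3, ZSWIM5, FAM212B and TNS3, with Pearson's r between 0.993 and 0.998. With 6 libraries in 3 groups, r mainly measures the order of the groups, and it is given without a test. These genes moved less than TNFRSF19. TNS3, which encodes the focal adhesion protein tensin 3, had 46.2 and 43.7 CPM in WT, 18.3 and 21.1 in AM, and 21.2 and 21.6 in 6WP. ANK3, which encodes the membrane scaffold ankyrin G, had 56.3 and 56.2 CPM in WT, 34.3 and 36.4 in AM, and 37.9 and 41.4 in 6WP. VEZF1, a zinc finger transcription factor, had 73.3 and 72.8 CPM in WT, 56.9 and 58.5 in AM, and 60.4 and 62.3 in 6WP.

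**Figure D4:**
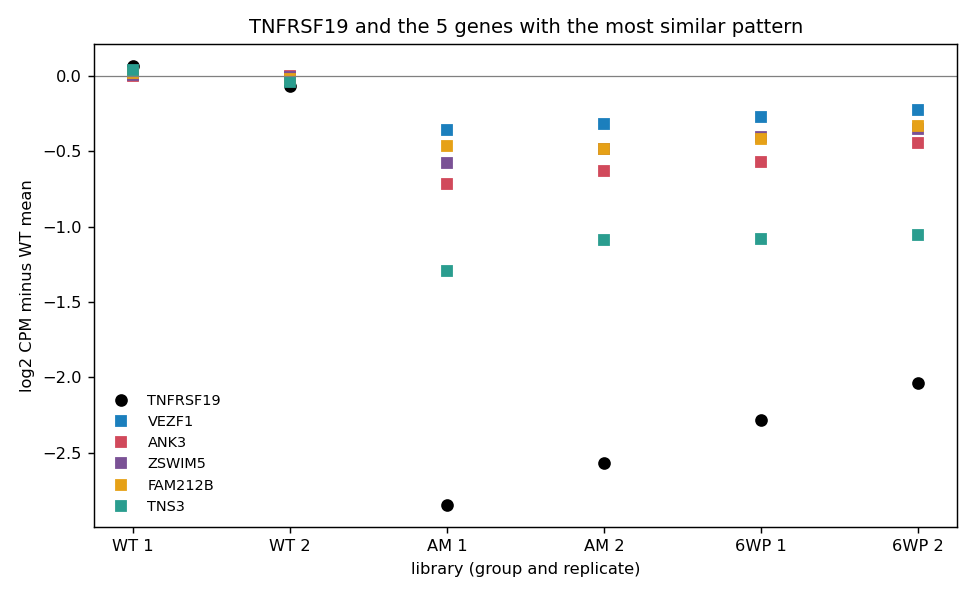
Log2 CPM minus the WT mean (vertical axis) of TNFRSF19 and the 5 genes with the highest Pearson's r to it, in each of the 6 libraries. TNFRSF19 reaches -2.85 and -2.57 in AM and -2.28 and -2.04 in 6WP, and TNS3, the next lowest, -1.29 and -1.09 in AM.

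Of 95 other Wnt pathway genes listed by role, 68 passed the filter. In AM against WT 15 of the 68 were called (22.1%), 2 higher and 13 lower, where 17.7% of all tested genes were called. The 13 include RSPO3, which passed the filter only through WT, so its call supports nothing. The median log2 fold change of the 68 was -0.31, beside 0.00 for all genes. Between 6WP and AM 16 were called (23.5%, against 21.3% of all genes), all higher in 6WP, with a median of 0.30 beside 0.05. The 16 include WNT3A, which passed the filter only through 6WP, so that call supports nothing. In 6WP against WT 2 were called (2.94%, against 3.00%), both higher, with a median of 0.00 beside 0.01. Counted in either direction, these shares are near those of all genes. By direction, 9.93% of all genes were called lower and 7.74% higher in AM than in WT. In 6WP against AM 11.7% were called higher and 9.68% lower. The directions of the Wnt pathway genes were not tested against those of all genes. The AM libraries enter both of the comparisons with many calls. With a WT or an AM library left out, the 15 became 2 or 3, with an AM library left out the 16 became 1, and with a 6WP library left out they became 26 or 29.

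**Figure D5:**
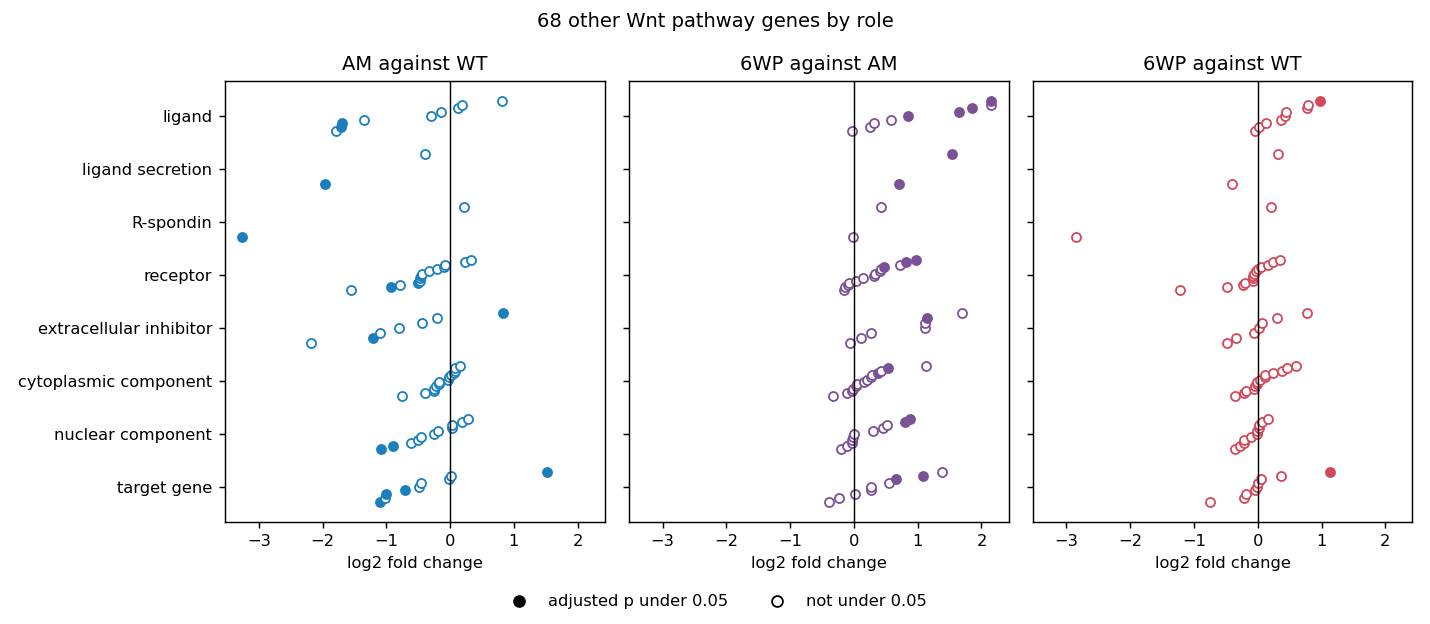
Log2 fold changes (horizontal axes) of the 68 tested other Wnt pathway genes by role (rows) in the 3 comparisons, with filled points for an adjusted p under 0.05. Filled points are 13 lower and 2 higher in AM against WT, 16 higher in 6WP against AM and 2 higher in 6WP against WT. The 13 include RSPO3, which passed the filter only through WT, and the 16 include WNT3A, which passed it only through 6WP.

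Both listed genes for releasing ligands and 4 of 9 tested ligands were called higher in 6WP than in AM, where 11.7% of all tested genes were. The 4 include WNT3A, which passed the filter only through 6WP. These small groups were not compared with other genes by a test. WLS, the carrier that brings Wnt proteins to the cell surface, had 27.8 and 27.7 CPM in WT, 6.29 and 7.95 in AM, and 19.6 and 22.1 in 6WP. AM was far below both other groups, and WLS was called under all 11 alternatives in AM against WT (log2 fold change -1.95, standard error 0.16, adjusted p = 0.00157, edgeR) and in 6WP against AM (1.54, standard error 0.16, adjusted p = 0.00213). PORCN, which attaches the lipid that Wnt proteins need, was higher in 6WP than in AM by 0.71 (standard error 0.20, adjusted p = 0.0412), a call that held in 7 of 11 alternatives. WNT5A, a ligand of β-catenin independent signalling, had 2.72 and 2.76 CPM in WT, 0.904 and 0.795 in AM, and 2.86 and 2.47 in 6WP. It fell in AM against WT by 1.69 on the log2 scale (standard error 0.27, adjusted p = 0.00845) and was higher in 6WP than in AM by 1.65 (standard error 0.27, adjusted p = 0.00745). WNT3 was lower in AM than in WT by a log2 fold change of -1.71 (adjusted p = 0.0252) and higher in 6WP than in AM by 1.85 (adjusted p = 0.0161). WNT3A, also higher in 6WP than in AM (2.15, adjusted p = 0.0365), rests on 8 and 11 counts in WT, 1 and 6 in AM and 17 and 14 in 6WP. Only 6WP, the group where WNT3A is high, had both libraries over the filter, so the WNT3A call supports nothing. Its adjusted p was under 0.05 in 6 of 10 alternatives. WNT2 had 4.24 and 3.95 CPM in WT, 4.65 and 4.27 in AM, and 8.57 and 7.51 in 6WP, and was called in 6WP against AM (0.85, adjusted p = 0.0189) and WT (0.97, adjusted p = 0.0413). The call against WT held in 7 of 11 alternatives and was lost with library size only (0.0534), with only the 2 groups compared (0.118) and without WT replicate 1 (0.386) or WT replicate 2 (0.312). The call against AM held in 8 of 11. WNT10B had the highest ligand level per length, 7.04 CPM per kb over the 6 libraries.

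Among R-spondins, the ligands of LGR4 and LGR5, RSPO4 was the best expressed at 3.89 CPM per kb, and RSPO3 was near the detection floor in AM and 6WP. RSPO3 had 14 and 10 counts in WT, 1 and 2 in AM, and 4 and 0 in 6WP. Per scaled library, WT held 10.4 times as much RSPO3 as AM (95% counting interval 3.15 to 53.7). The gene passed the filter only through WT, the group where it is high, so it had to differ, and its test supports nothing. RSPO3 shares 15.7% of its exon bases with a gene on the opposite strand. Of 14 tested receptors, 3 fell in AM against WT (FZD5, FZD6 and PTK7) and 3 were higher in 6WP than in AM (FZD6, FZD8 and PTK7). Each is 21.4% of the receptors, beside 9.93% of all genes lower in AM and 11.7% higher in 6WP, or 17.7% and 21.3% called in either direction. FZD6, the receptor with the most signal per length (31.3 CPM per kb), had 144 and 136 CPM in WT, 98.6 and 104 in AM, and 138 and 142 in 6WP, with log2 fold changes of -0.46 against WT and 0.47 from AM to 6WP (standard error 0.10 each, adjusted p = 0.0217 and 0.0181). PTK7, a pseudokinase co-receptor of planar polarity, changed by -0.92 and 0.97 in the same comparisons (adjusted p = 0.0217 and 0.0158). FZD5 fell by 0.51 on the log2 scale in AM against WT (adjusted p = 0.0332), and FZD8 was 0.82 higher in 6WP than in AM (adjusted p = 0.0142). Of the Kremen receptors for DKK proteins, KREMEN1 was lower in AM than in WT (-1.21, adjusted p = 0.00920) and higher in 6WP than in AM (1.15, adjusted p = 0.00916). KREMEN2, with 11 CPM per kb over the 6 libraries, was higher in AM than in WT (0.83, adjusted p = 0.0323).

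Inside the cell, 0 of 14 cytoplasmic genes were called in AM against WT (1 at an unadjusted p under 0.05), where 17.7% of all genes were. Between 6WP and AM 2 of the 14 were called (14.3%, against 21.3% of all genes), DVL1 and AXIN1 (0.54 and 0.38, adjusted p = 0.0474 and 0.0492). The call of DVL1 held in 6 of 11 alternatives and that of AXIN1 in 3 of 11, with adjusted p-values of up to 0.268 and 0.249. CTNNB1, the best expressed of these genes, had 799 and 737 CPM in WT, 747 and 765 in AM, and 607 and 592 in 6WP. Both 6WP libraries lay below all others, but CTNNB1 was not called in any comparison. Its log2 fold change in 6WP was -0.33 against AM (unadjusted p 0.0126, adjusted p = 0.0555, edgeR). Against WT it was -0.36 (unadjusted p 0.00919, adjusted p = 0.104), and in AM against WT it was -0.02. Of 11 tested nuclear genes, 2 were called in AM against WT and 2 in 6WP against AM (18.2% each, against 17.7% and 21.3% of all genes). TCF7L2, a relative of TCF7 and LEF1, had 15.9 and 15.4 CPM in WT, 7.36 and 7.39 in AM, and 10.5 and 15.4 in 6WP. It was lower in AM than in WT (-1.08, standard error 0.20, adjusted p = 0.0126) and higher in 6WP than in AM (0.81, standard error 0.20, adjusted p = 0.0270). The co-repressor TLE2 changed by -0.89 and 0.87 in these comparisons (adjusted p = 0.0304 and 0.0273), and PYGO2, at 51.9 CPM per kb, stayed between 187 and 195 CPM. Of 9 tested genes known as Wnt targets, 4 were called in AM against WT (44.4%, against 17.7% of all genes), 3 lower and 1 higher. MYC, JUN and SOX9 were lower in AM than in WT by log2 fold changes of -0.70, -1.10 and -1.01 (adjusted p = 0.0233, 0.0264 and 0.00839). The WT libraries of JUN lay apart, at 65.7 and 122 CPM. Between 6WP and AM 2 of these 9 targets were called (22.2%, against 21.3% of all genes). They were MYC and JUN, higher in 6WP by 0.65 and 1.08 (adjusted p = 0.0246 and 0.0236). EPHB3, an ephrin receptor, went the other way and had 157 and 186 CPM in WT, 466 and 518 in AM, and 338 and 415 in 6WP. Its log2 fold change was 1.52 in AM against WT (standard error 0.14, adjusted p = 0.00210) and 1.13 in 6WP against WT (standard error 0.14, adjusted p = 0.00912). CCND1, the target with the highest level at 376 CPM per kb, was not called in any comparison. Its log2 fold change was -0.49 in AM against WT (unadjusted p 0.0208, adjusted p = 0.083, edgeR). From AM to 6WP it was 0.55 (unadjusted p 0.0124, adjusted p = 0.0549), and in 6WP against WT it was 0.06.

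Of 28 other TNF receptor family genes, 16 passed the filter. TNFRSF11B, the decoy receptor osteoprotegerin, was the 1 called in AM against WT (6.25%, against 17.7% of all genes). It had 3.08 and 2.07 CPM in WT, 0.646 and 0.501 in AM, and 2.28 and 1.16 in 6WP, a log2 fold change of -2.18 in AM against WT (standard error 0.43, adjusted p = 0.0155) and of 1.60 from AM to 6WP (standard error 0.44, adjusted p = 0.0373). Between 6WP and AM 5 were called, all higher (31.2%, against 11.7% of all genes called higher and 21.3% in either direction). Besides TNFRSF11B these were NGFR (1.78, adjusted p = 0.0380), TNFRSF14 (1.57, adjusted p = 0.0402) and the TRAIL receptors TNFRSF10D (0.67, adjusted p = 0.0412) and TNFRSF10B (0.64, adjusted p = 0.00983), the last of which lies outside the naming rule and was added after its values were seen. NGFR and TNFRSF14 rest on 5 to 9 counts in AM, did not pass the filter through AM, and held in 5 and 4 of 10 alternatives. Without a WT or an AM library the call in AM against WT was lost, and without an AM library all 5 in 6WP against AM were. In 6WP against WT edgeR called 0 of the 16 (3 at an unadjusted p under 0.05). TNFRSF21, the best expressed of the family, was at 39.6 CPM per kb.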

How the data were processed

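RNA from 22Rv1 cells was prepared with a stranded kit and sequenced as 100 base single end reads. Per the paper and the submitters' processing notes, reads were aligned to hg38 with STAR (2.5.3a), and featureCounts (1.5.3) and StringTie (1.3.3) are named among the tools. The strand setting and annotation are not given in the sources used here. The table that the authors deposited holds unnormalized counts of reads for 29804 symbols in each of 6 libraries. From these counts, genes were kept by filterByExpr (14672 genes), TMM factors were computed and the quasi-likelihood test of edgeR (4.0.16, R 4.3.3) was run on all 6 libraries without covariates, two-sided, with Benjamini-Hochberg adjustment over all tested genes and a threshold of 0.05. The common dispersion was 0.0173. Standard errors were obtained by dividing a log2 fold change by √F. With 2 libraries against 2, an exact permutation test cannot give a p below 0.333, so tests rest on the model.

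The members and gene lists were chosen with earlier results of these data known. Genes named are the 10 members, the called genes of the Wnt and TNF receptor lists (at most 4 per role and comparison, by size), the gene of each role with the highest level per length, and the 5 genes most like TNFRSF19 and AXIN2. Exon lengths and overlaps are from GENCODE (release 44, GRCh38), which may differ from the annotation used for counting. Alternatives were DESeq2's size factors, library size only, no filter beyond 1 count, a minimum of 10 counts in all libraries, DESeq2 (1.42.0) with its Wald test, only the 2 groups compared, a replicate block, and each library left out.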

Additional observations from a re-analysis of the deposited data

How the results depend on the processing

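When a library was left out, a group was represented by 1 library, which was assumed to vary like the others. In 6WP against WT the number of genes called was 440 and lay between 0 and 3801, and that of other Wnt pathway genes was 2 and lay between 0 and 18. Both were 0 without either WT library. In 6WP against AM the 3131 genes became 115 to 6799, the 16 Wnt pathway genes 1 to 29, and the members called 0 to 6, with 6 without 6WP replicate 1 and 3 without replicate 2. In AM against WT the 2593 genes became 46 to 123 and the 15 Wnt pathway genes 2 to 3, while TNFRSF19 was called each time. Among the members, log2 fold changes changed sign for LGR4 and ZNRF3 in 6WP against AM (ranges of -0.0683 to 0.54 and -0.41 to 0.11), for DKK1 in AM against WT (-0.34 to 0.14), and for LGR4 and LEF1 in 6WP against WT (-0.52 to 0.07 and -0.23 to 0.05). In the comparisons with 6WP the lowest counts came from fits that lost a WT or AM library and the highest from fits that lost a 6WP library, the group with the widest spread. Whether that spread is the cause was not tested.

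With only the 2 groups compared, 98 genes and 1 Wnt pathway gene were called in 6WP against WT, and 1299 and 6 in 6WP against AM. In AM against WT 6635 of the 14672 tested genes and 33 Wnt pathway genes were called. In that fit 5 of the 9 tested members passed (TNFRSF19, LGR4, RNF43, TCF7 and LEF1). Beside that large share of all genes, nothing is read from the number of members. Without a filter beyond 1 count, 6WP against WT gave 894 genes and 5 Wnt pathway genes, and with DESeq2 1124 and 8. Library size only gave 1 Wnt pathway gene there. It also moved the share of calls that were higher in AM than in WT from 43.8% to 30.5%, with 16 Wnt pathway genes lower and 2 higher. In 6WP against AM, 1 member was called without a filter, with DESeq2 and with the replicate block, and it was TCF7.

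Replicate numbers are shared by the groups, but libraries with the same number hardly deviated together over all tested genes. The correlations were 0.0873 for 6WP and WT, -0.0206 for 6WP and AM, and 0.0395 for AM and WT. A correlation over all genes cannot tell whether a pairing or batch acted on some of them. With the replicate block 393 genes were called between 6WP and WT, 3069 between 6WP and AM, and 2485 between AM and WT. For TNFRSF19 the depth limits little, while NKD1 and RSPO3 lie near the floor of 3 counts.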

Other observations

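Ratios between related genes within a library, noticed after the values were seen and not tested, differed between groups. Per kilobase, LGR4 was 1.35 and 1.38 times LGR5 in the WT libraries, 0.773 and 0.880 times in AM, and 0.970 and 1.59 times in 6WP. LEF1 was 9.82 and 9.56 times TCF7 in WT, 5.09 and 5.18 times in AM, and 11.8 and 35 times in 6WP. ZNRF3 was 1.53 and 1.76 times RNF43 in WT, 1.87 and 1.91 times in AM, and 1.53 and 2.69 times in 6WP. RNF43 shares 68.4% of its exon bases with another locus on the same strand, so the size of these ratios is uncertain. The AM libraries lay apart from both other groups for LGR4 and LGR5 and for LEF1 and TCF7, and the 6WP libraries disagreed most with each other for all 3 pairs.

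The 5 genes whose log2 CPM ran most like that of AXIN2 over the 6 libraries were KCTD6, PROM2, VPS53, ZNF701 and GTF3C1, with Pearson's r between 0.970 and 0.983. All were lowest in 6WP replicate 1. PROM2, a membrane glycoprotein of cell protrusions, had 110 and 118 CPM in WT, 125 and 123 in AM, and 93.9 and 110 in 6WP.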
